A study of Arabidopsis thaliana with 12 samples.

Results

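The JAZ proteins are the repressors of jasmonate signalling. Under resting conditions they bind MYC transcription factors and, through the adaptor NINJA or directly, recruit the co-repressor TOPLESS. When jasmonoyl-isoleucine accumulates, it joins a JAZ protein to the receptor COI1, the JAZ protein is degraded and the MYC factors act. JAZ genes are themselves transcribed in response to jasmonate in Arabidopsis, so that new repressor is made while old repressor is broken down. The 10 genes JAZ1 to JAZ10 were taken by gene ID, and all 10 had a row among the 27655 genes of both count tables. They are described across 3 supplies of boron, a nutrient that crosslinks pectin in the plant cell wall.

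The plants were wild-type Arabidopsis thaliana of ecotype Col-0, grown on gel with sucrose for 14 days. The low boron group (Bminus) received 0.3 µM boric acid, the control group (Ctrl) 30 µM and the high boron group (Bplus) 500 µM. Each sample was a pool of the whole shoots of about 300 seedlings, and each supply was measured in 2 RNA-seq libraries and in 2 ribosome profiling libraries. In ribosome profiling the mRNA fragments shielded by ribosomes, called footprints, are sequenced. Their number for a gene reflects the ribosomes on all copies of its mRNA together, so it also rises with the mRNA level. Libraries are called 2 and 3 after the numbers in the tables. In pooled whole shoots, a change in the proportions of cells and a change in RNA per cell cannot be told apart, and in each result below fewer cells of a type would look the same as less RNA per cell.

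RNA libraries held 7563365 to 9256564 counts and footprint libraries 6903881 to 24206655 counts, the deepest being low boron library 2. All 5 shoot and leaf markers were detected, whereas 5 root markers together gave 5 to 16 counts in an RNA library. At low boron 4 of the 5 shoot markers fell in mRNA, among them CAB3 (AT1G29910), a light-harvesting protein, at a log2 change of -0.60 ± 0.10 (SE). Of all genes tested in mRNA, 13.8% were called lower there. Summed, the 5 shoot markers stood at 14106 to 14492 CPM (counts scaled to a fixed library total) in Ctrl, 10463 to 10637 in low boron and 13161 to 13206 in high boron mRNA. Most of this sum came from RBCS1A (AT1G67090) and CAB3, with means of 11238 and 2926 CPM in Ctrl mRNA. Values below are CPM after TMM scaling within an assay, and they compare a gene across libraries, not one gene with another. Changes are log2 fold changes with their standard error from edgeR's quasi-likelihood test, with p-values adjusted by Benjamini-Hochberg over all genes tested and a threshold of 0.05.

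At low boron the mRNA of 7 JAZ genes rose and none fell. JAZ5, JAZ10, JAZ1 and JAZ9 rose most, by 9.69-fold, 5.49-fold, 4.22-fold and 3.29-fold, and JAZ6, JAZ3 and JAZ2 rose by 2.09-fold, 1.63-fold and 1.58-fold. JAZ7 and JAZ4 were not called, and JAZ8 had too few RNA counts to be tested. Of all 18403 genes tested, 19.5% were called higher and 13.8% lower at low boron. Footprints of 6 JAZ genes rose as well, namely JAZ1, JAZ5, JAZ6, JAZ7, JAZ9 and JAZ10, where 8.05% of 17697 genes were called higher and 6.92% lower. No JAZ gene fell in footprints.

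**Figure D1:**
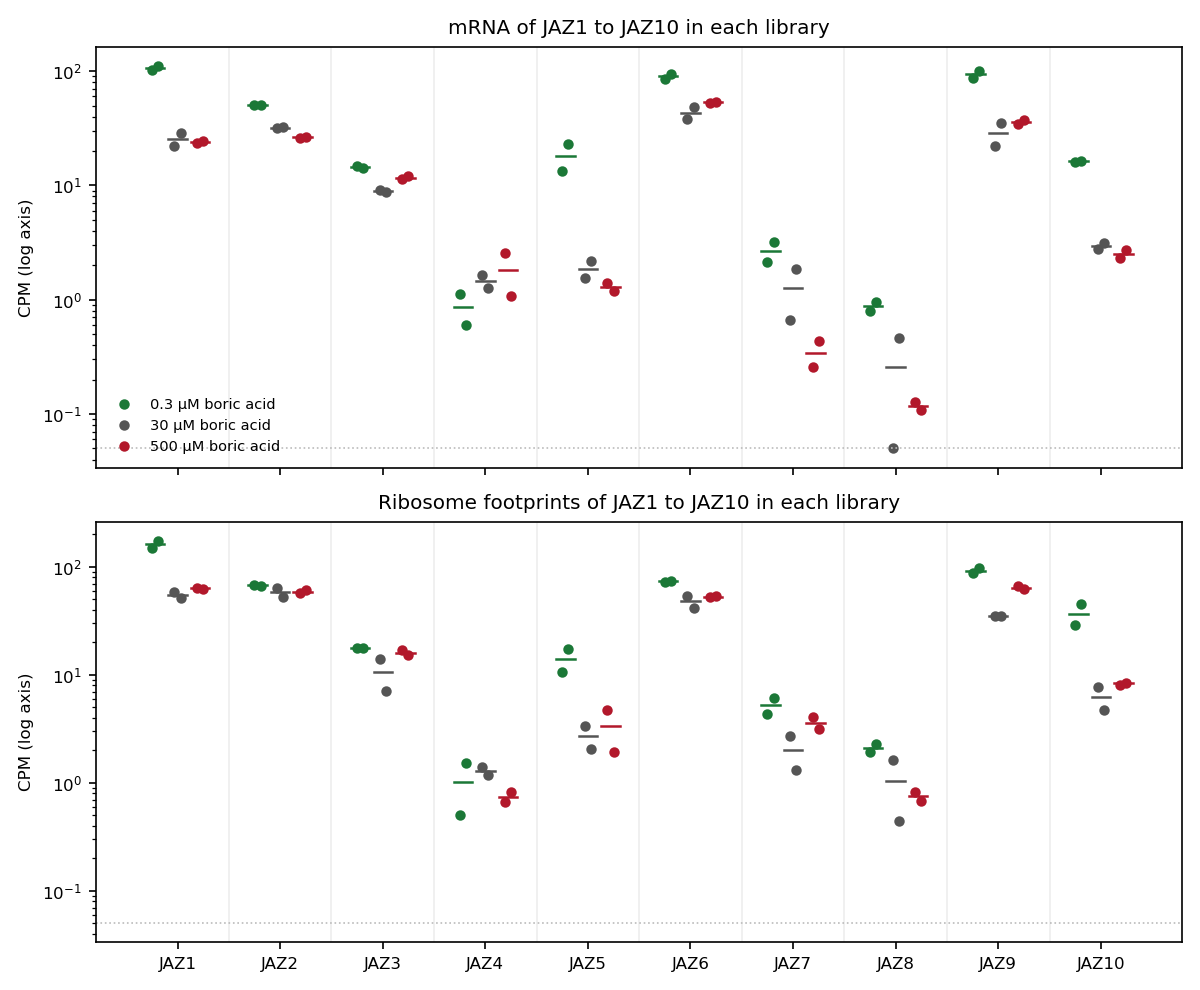
Level of each JAZ gene in each library, as CPM on a log axis, for mRNA (top) and ribosome footprints (bottom). Each point is 1 library, the short lines are means of the 2 libraries, colours give the boric acid supply, and a library with no count is drawn on the dotted line. In both assays the low boron points of each gene but JAZ4 stand above all its other points. This order is not a test: footprints of JAZ2, JAZ3 and JAZ8 and mRNA of JAZ7 show it and were not called. How many of all genes show this order was not counted.

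JAZ1 (AT1G19180) and JAZ2 (AT1G74950) are close relatives, and JAZ1 was among the first JAZ proteins shown to be degraded through COI1. The mRNA of JAZ1 stood at 22.1 and 28.6 CPM in Ctrl, 103 and 111 CPM in low boron, and 23.6 and 24.5 CPM in high boron. Both low boron libraries lay far above the other 4, while the Ctrl and high boron ranges overlapped. The log2 change at low boron was 2.08 ± 0.11 (edgeR adjusted p = 6.50e-09). JAZ1 footprints stood at 58.4 and 51.3 CPM in Ctrl, 151 and 174 CPM in low boron, and 64.3 and 62.6 CPM in high boron. They rose by 1.56 ± 0.17 on the log2 scale at low boron (edgeR adjusted p = 2.79e-05), again with no overlap between low boron and the rest.

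JAZ2 mRNA was 31.9 and 32.3 CPM in Ctrl, 50.5 and 50.9 CPM in low boron, and 25.9 and 26.6 CPM in high boron. The libraries of each group lay close together and the 3 groups did not overlap. JAZ2 mRNA rose by 0.66 ± 0.09 at low boron (edgeR adjusted p = 8.60e-05), and high boron differed from Ctrl by -0.29 ± 0.10, which was not called (edgeR adjusted p = 0.104). JAZ2 footprints were 63.2 and 52.8 CPM in Ctrl, 67.8 and 67.0 CPM in low boron, and 57.3 and 60.8 CPM in high boron, and the low boron difference of 0.21 ± 0.17 was not called (edgeR adjusted p = 0.462). The ratio of JAZ1 to JAZ2 counts within a library therefore moved. In mRNA it was 0.694 and 0.886 in Ctrl, 2.04 and 2.17 in low boron, and 0.911 and 0.919 in high boron. In footprints it was 0.924 and 0.972 in Ctrl, 2.23 and 2.60 in low boron, and 1.12 and 1.03 in high boron. How reads shared by related genes were assigned is not given in the sources used here, so the split between close relatives is uncertain.

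JAZ5 (AT1G17380) and JAZ6 (AT1G72450) form another pair of close relatives. JAZ5 mRNA stood at 1.55 and 2.19 CPM in Ctrl, 13.2 and 23.2 CPM in low boron, and 1.41 and 1.19 CPM in high boron. Low boron was high in both libraries, library 3 more so than library 2, and the Ctrl values rest on 14 and 19 counts. The log2 change of 3.28 ± 0.31 (edgeR adjusted p = 2.07e-06) was exceeded by 0.217% of all genes tested. JAZ5 footprints were 3.35 and 2.05 CPM in Ctrl, 10.7 and 17.4 CPM in low boron, and 4.74 and 1.92 CPM in high boron. They rose by 2.29 ± 0.37 at low boron (edgeR adjusted p = 0.000716), and Ctrl and high boron overlapped.

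JAZ6 mRNA was 37.8 and 48.2 CPM in Ctrl, 85.8 and 93.8 CPM in low boron, and 52.3 and 54.0 CPM in high boron. Low boron was highest in both libraries, at a log2 change of 1.06 ± 0.11 (edgeR adjusted p = 3.16e-06). JAZ6 footprints were 53.7 and 42.0 CPM in Ctrl, 73.1 and 73.7 CPM in low boron, and 52.5 and 53.3 CPM in high boron. They rose by 0.61 ± 0.17 (edgeR adjusted p = 0.0271), and this was no longer called when low boron library 2 (adjusted p = 0.130), low boron library 3 (0.170) or Ctrl library 3 (0.141) was left out, at 0.46 to 0.81 on the log2 scale. For each JAZ6 count in mRNA there were 0.0409 and 0.0455 JAZ5 counts in Ctrl, 0.154 and 0.248 in low boron, and 0.0270 and 0.0220 in high boron. The low boron libraries thus held the highest JAZ5 share of this pair, and JAZ6 still gave most of its counts.

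JAZ9 (AT1G70700), JAZ3 (AT3G17860) and JAZ4 (AT1G48500) form another branch of the family. JAZ9 mRNA stood at 22.1 and 35.3 CPM in Ctrl, 87.9 and 101 CPM in low boron, and 34.2 and 37.2 CPM in high boron. Both low boron libraries stood above the other 4, and the rise was 1.72 ± 0.15 on the log2 scale (edgeR adjusted p = 8.22e-07). JAZ9 footprints were 34.99 and 35.21 CPM in Ctrl, 87.1 and 96.7 CPM in low boron, and 66.3 and 61.8 CPM in high boron. Here the 3 groups did not overlap and Ctrl was lowest. The low boron rise in footprints was 1.39 ± 0.17 (edgeR adjusted p = 6.49e-05).

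JAZ3 mRNA was 9.07 and 8.76 CPM in Ctrl, 14.9 and 14.1 CPM in low boron, and 11.3 and 12.02 CPM in high boron. The groups did not overlap, and low boron was higher than Ctrl by 0.70 ± 0.16 on the log2 scale (edgeR adjusted p = 0.00339). JAZ3 footprints were 14.1 and 7.04 CPM in Ctrl, 17.9 and 17.6 CPM in low boron, and 17.0 and 15.2 CPM in high boron. The Ctrl libraries differed by more than the other pairs, and the low boron difference of 0.70 ± 0.25 was not called (edgeR adjusted p = 0.0749), although it was called without Ctrl library 2 (1.34, adjusted p = 0.0105).

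JAZ4 was scarce, with 5 to 20 RNA counts and 6 to 17 footprint counts per library. Its mRNA stood at 1.66 and 1.27 CPM in Ctrl, 1.13 and 0.596 CPM in low boron, and 2.57 and 1.08 CPM in high boron. It passed the filter in both assays through Ctrl, the only group with both libraries over the cutoff. Its fitted level was lower at low boron, by -0.74 ± 0.56 in mRNA (edgeR adjusted p = 0.343) and -0.52 ± 0.58 in footprints (edgeR adjusted p = 0.623). Neither difference was detectable at this depth, and the footprint value was 0.24 without low boron library 2.

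JAZ7 (AT2G34600) and JAZ8 (AT1G30135) are short members of the family. JAZ8 lacks the canonical sequence that COI1 recognises and is known for its stability in the presence of jasmonate. Both were scarce. JAZ7 mRNA had 6 and 16 counts in Ctrl, 19 and 27 in low boron, and 2 and 4 in high boron, or 0.664 and 1.84, 2.15 and 3.22, and 0.257 and 0.433 CPM. The low boron libraries were highest and the high boron libraries lowest. JAZ7 mRNA passed the filter on low counts only through the low boron group, and its low boron difference of 1.09 ± 0.47 was not called (edgeR adjusted p = 0.0897). It was called without Ctrl library 3 (1.99, adjusted p = 0.0218).

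JAZ7 footprints were 2.70 and 1.32 CPM in Ctrl, 4.38 and 6.05 CPM in low boron, and 4.07 and 3.15 CPM in high boron. Ctrl was lowest in both libraries, and the rise at low boron was 1.26 ± 0.37 (edgeR adjusted p = 0.0304). It was not called without low boron library 3 (1.05, adjusted p = 0.200) or Ctrl library 3 (0.93, adjusted p = 0.142), and without Ctrl library 2 it was 1.95 (adjusted p = 0.0383). JAZ8 mRNA had 0 and 4 counts in Ctrl, 7 and 8 in low boron, and 1 and 1 in high boron. The summed low boron count per depth was 3.85 times that of Ctrl, with an exact 95% interval from 1.23 to 16.0 for counting error alone. JAZ8 footprints were 1.64 and 0.440 CPM in Ctrl, 1.94 and 2.30 CPM in low boron, and 0.814 and 0.685 CPM in high boron. They passed the filter only through low boron, and the difference of 0.86 ± 0.50 was not called (edgeR adjusted p = 0.296).

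JAZ10 (AT5G13220) is known for splice forms that lack part of the Jas domain and resist degradation. The files count 1 transcript of it, AT5G13220.7, of 7 that RefSeq lists, so its splice forms cannot be told apart here. The RefSeq table also places a long non-coding RNA, AT5G02045, over it, and whether counting used the strand is not given, so its level is uncertain. JAZ10 mRNA stood at 2.77 and 3.11 CPM in Ctrl, 16.2 and 16.2 CPM in low boron, and 2.31 and 2.71 CPM in high boron. The rise at low boron was 2.46 ± 0.21 (edgeR adjusted p = 6.95e-07), exceeded by 0.712% of genes. JAZ10 footprints were 7.77 and 4.69 CPM in Ctrl, 28.7 and 45.2 CPM in low boron, and 8.14 and 8.50 CPM in high boron. They rose by 2.51 ± 0.27 (edgeR adjusted p = 1.89e-05), the highest fitted rise in footprints among the 10 genes.

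**Figure D2:**
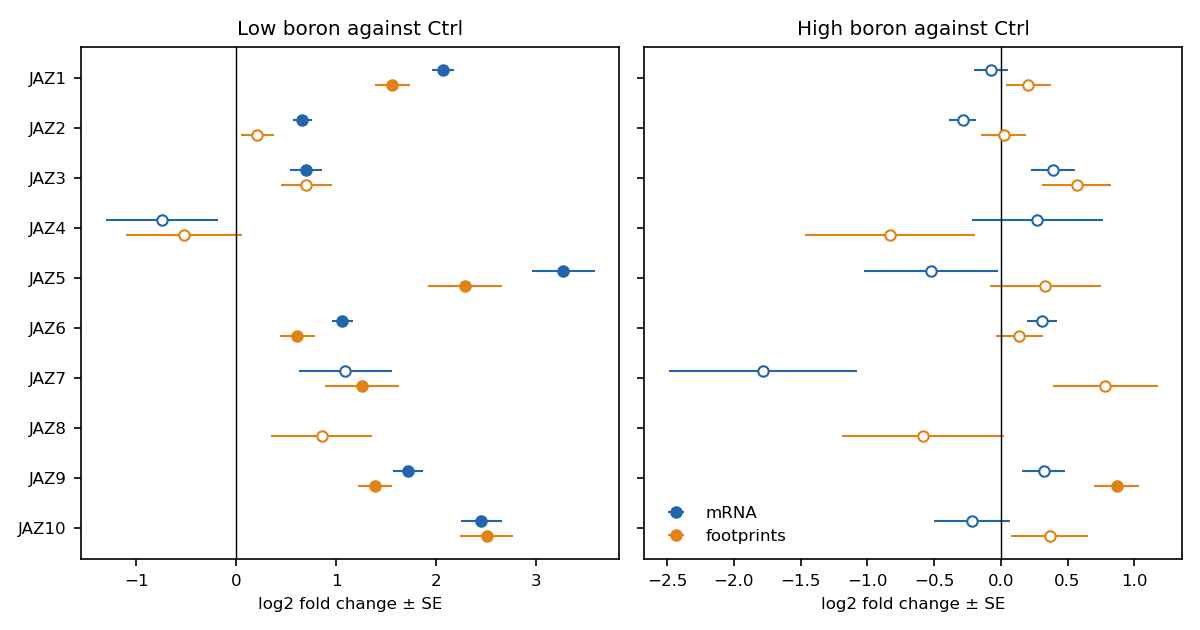
Log2 fold change (± SE) of each JAZ gene at low boron (left) and high boron (right) against Ctrl, in mRNA (blue) and footprints (orange); filled points have an edgeR adjusted p under 0.05, and JAZ8 has no mRNA point because its counts were too low to test. At low boron JAZ5, JAZ10, JAZ1 and JAZ9 lie farthest to the right in both assays, and at high boron JAZ9 footprints are the one filled point.

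Within the family, neighbours in the order of the low boron mRNA rise were often not separable. JAZ5 exceeded JAZ10 by 2.17 combined standard errors, and JAZ2 exceeded JAZ4 by 2.46. The other neighbours, in the order JAZ10, JAZ1, JAZ9, JAZ7, JAZ6, JAZ3 and JAZ2, and all neighbours in the footprint order, differed by less than 2 combined standard errors. The median mRNA change of the 9 tested JAZ genes was 1.09, against 0.02 over all genes, and it was 1.72 over the 7 left without JAZ4 and JAZ7, which each passed the filter through 1 group. The median footprint change of the 10 genes was 1.06, against 0.00 over all genes, and it was 1.33 over the 8 left without JAZ4 and JAZ8, which passed in the same way.

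Summed over the 10 genes, JAZ mRNA was 130 and 162 CPM in Ctrl, 376 and 414 CPM in low boron, and 154 and 160 CPM in high boron. Summed footprints were 241 and 198 CPM in Ctrl, 443 and 501 CPM in low boron, and 276 and 269 CPM in high boron. Low boron was thus highest in both assays. The make-up of the sum differed too. JAZ1 gave 17.1 and 17.7% of JAZ RNA counts in Ctrl and 27.4 and 26.7% in low boron, whereas JAZ2 gave 24.6 and 19.9% in Ctrl and 13.4 and 12.3% in low boron. The JAZ6 share was 29.2 and 29.8% in Ctrl and 22.8 and 22.6% in low boron. In footprints JAZ1 gave 24.2 and 25.9% in Ctrl and 34.1 and 34.7% in low boron. These shares depend on coding length as well as on level, so only their shift between supplies is comparable.

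At high boron the mRNA of no JAZ gene was called in edgeR or in DESeq2, where 4.5% of genes were called higher and 4.55% lower in edgeR. At an unadjusted p under 0.05 there were 4 of the 9 tested, with JAZ3 and JAZ6 higher and JAZ2 and JAZ7 lower. Over all genes, 4024 of 18403 had such a p-value. JAZ6 was 0.31 ± 0.11 (edgeR adjusted p = 0.109) and was called without Ctrl library 3 (0.49, adjusted p = 0.00523), as was JAZ9 (0.32 ± 0.16 with all libraries, 0.69 without that library, adjusted p = 0.000870). JAZ7 was -1.78 ± 0.71 (edgeR adjusted p = 0.148), from 2 and 4 counts at high boron, and was called without Ctrl library 2 (-2.34, adjusted p = 0.0375).

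Footprints of JAZ9 rose at high boron by 0.87 ± 0.17 (edgeR adjusted p = 0.0133), a 1.83-fold difference, where 0.463% of genes were called higher and 1.51% lower. Both high boron libraries were above both Ctrl libraries. It was no longer called when Ctrl library 2 (adjusted p = 0.112), Ctrl library 3 (0.0636) or high boron library 2 (0.0848) was left out, and the log2 change stayed between 0.82 and 0.89. No other JAZ gene was called in footprints at high boron. JAZ3 was 0.57 ± 0.26 (edgeR adjusted p = 0.421) and JAZ7 was 0.78 ± 0.39 (edgeR adjusted p = 0.481), each with high boron above Ctrl in all libraries. The same order held for JAZ1 and JAZ10 footprints, and the opposite order for JAZ4. How many of all genes show such an order was not counted.

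Between the supply extremes, 7 JAZ mRNAs were lower at high than at low boron, all but JAZ3, JAZ4 and the untested JAZ8, where 23.1% of genes were called lower and 19.3% higher. One of the 7, JAZ7, had passed the filter only through low boron. The log2 differences ran from -0.76 ± 0.10 for JAZ6 to -3.80 ± 0.34 for JAZ5, with JAZ1 at -2.15 ± 0.11 and JAZ10 at -2.68 ± 0.22. These values share their low boron libraries with the comparison against Ctrl. JAZ3 differed by -0.31 ± 0.15 (edgeR adjusted p = 0.120). In footprints JAZ1, JAZ5, JAZ9 and JAZ10 were lower, where 11.3% of genes were called lower and 9.34% higher. JAZ1 stood at -1.36 ± 0.17, JAZ10 at -2.14 ± 0.26 and JAZ9 at -0.52 ± 0.16 (edgeR adjusted p = 0.0350). The JAZ9 call was lost without any 1 of the 4 low and high boron libraries (adjusted p of 0.107 and 0.270 without low boron library 2 and 3, and 0.0789 and 0.132 without high boron library 2 and 3). JAZ5 stood at -1.96 ± 0.35, and at -2.84 without high boron library 2.

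Footprints per mRNA, the measure called translation efficiency, were compared with the interaction of assay and supply over all 12 libraries. No JAZ gene was called at low boron in edgeR or DESeq2, where 0.0231% of 17306 genes were called higher and 0% lower in edgeR. At an unadjusted p under 0.05 there were 3 of the 9 members tested, each lower, and 1080 of all 17306 genes. The 3 were JAZ1 at -0.51 ± 0.19, JAZ2 at -0.45 ± 0.17 and JAZ6 at -0.45 ± 0.20, with edgeR adjusted p-values of 0.763, 0.763 and 0.791. At high boron, where 0.0347% of genes were called higher and 0.699% lower, again no member was called in either tool. An unadjusted p under 0.05 was found for 2 of the 9 members and for 1428 of the 17306 genes. JAZ7 was higher by 2.57 ± 0.82 (edgeR adjusted p = 0.254) on 2 and 4 RNA counts, and JAZ9 by 0.55 ± 0.24 (edgeR adjusted p = 0.548). With 2 libraries per group these intervals are wide. JAZ5 at low boron, for example, stood at -1.01 ± 0.59, so a sizeable shift was not detectable.

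**Figure D3:**
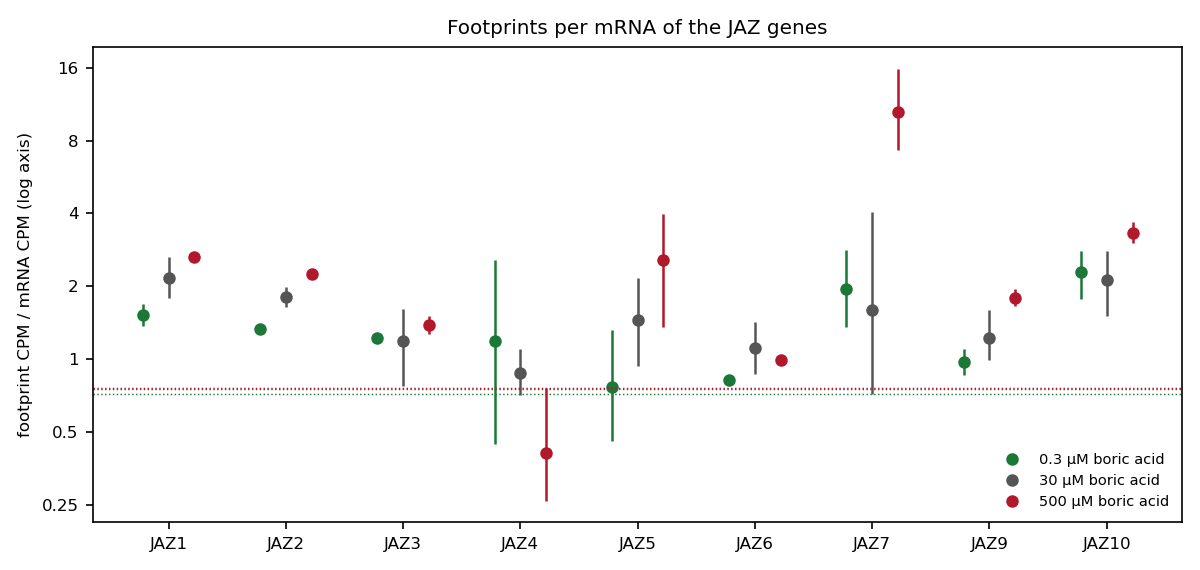
Footprint CPM divided by mRNA CPM for the 9 JAZ genes tested in both assays, on a log axis, by boric acid supply. Points are ratios of the group means, vertical lines run from the lowest to the highest ratio that the libraries allow, and dotted lines give the median gene of each supply; in Ctrl all 9 points are above the median gene at 0.752, from JAZ4 at 0.875 to JAZ1 at 2.16.

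In Ctrl shoots the footprint to mRNA ratio of the JAZ genes, as a ratio of mean CPM, was above that of the median gene (0.752) for all 9 that could be compared. JAZ1 stood at 2.16 and JAZ10 at 2.12, higher than 95.8 and 95.5% of genes, followed by JAZ2 at 1.81 (92.6%). JAZ6 stood at 1.11 (72.7%), JAZ9 at 1.22 (77.5%) and JAZ3 at 1.18 (75.9%). Both counts come from the same coding sequence, so length should largely cancel in this ratio. RNA reads and ribosome positions may be counted differently near its ends, which was not examined. The uncertain level of JAZ10 applies to its ratio too. The scarce or weakly counted JAZ5, JAZ7 and JAZ4 stood at 1.45, 1.60 and 0.875. At low boron, against a median gene of 0.717, the ratio was below its Ctrl value for JAZ1 (1.52), JAZ2 (1.33), JAZ5 (0.770), JAZ6 (0.818) and JAZ9 (0.973), and above it for JAZ3 (1.22), JAZ4 (1.18), JAZ7 (1.94) and JAZ10 (2.28). At high boron, against 0.760, it was below its Ctrl value for JAZ6 (0.995) and JAZ4 (0.408), and JAZ4 was then also below the median gene. It was above its Ctrl value for JAZ1 (2.64), JAZ2 (2.25), JAZ3 (1.38), JAZ5 (2.56), JAZ7 (10.5), JAZ9 (1.79) and JAZ10 (3.32). These are descriptions of the group means and carry no test.

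Of a list of 6 other genes of the TIFY family, to which the JAZ genes belong, 5 were tested, and JAZ13 (AT3G22275) had too few counts. At low boron none of the 5 rose and 1 fell in mRNA, where 19.5% of all genes were called higher and 13.8% lower. JAZ11 (AT3G43440) stood at 0.42 ± 0.17 (edgeR adjusted p = 0.0705) and JAZ12 (AT5G20900) at 0.23 ± 0.09 (edgeR adjusted p = 0.0687). The growth regulators PPD1 (AT4G14713) and PPD2 (AT4G14720) stood at -0.47 ± 0.25 and -0.28 ± 0.15 and were not called. The gene that fell was TIFY8 (AT4G32570), a transcriptional repressor outside the JAZ group, by -0.68 ± 0.10 (edgeR adjusted p = 0.000119). It fell in footprints too, by -1.05 ± 0.27, a call lost without low boron library 3, Ctrl library 2 or Ctrl library 3. Without RNA Ctrl library 2, 1 of the 5 was called higher in mRNA. The median mRNA change of the 5 was -0.28, with JAZ11 and JAZ12 above 0 and the other genes below it.

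Enzymes that make jasmonate rose at low boron, 13 of 14 in mRNA with a median of 0.92 and 9 of 14 in footprints, or 5 without Ctrl library 2, against 19.5% of all genes called higher in mRNA and 8.05% in footprints. AOC3 (AT3G25780), an allene oxide cyclase, stood at 2.52 ± 0.17 in mRNA, and the lipoxygenases LOX2 (AT3G45140) and LOX4 (AT1G72520) at 1.57 ± 0.10 and 1.54 ± 0.16. Enzymes that remove or inactivate jasmonates rose as well, 7 of 8 tested in mRNA with a median of 2.14 and 6 of 7 in footprints. Of these, JOX3, JOX4, ST2A and the uncalled CYP94B1 had both mRNA libraries over the filter's cutoff of 1.13 CPM only at low boron. JOX4 footprints were over their cutoff in the same way. The counts and the median thus rest in part on genes tested because they were high in that group. The jasmonate hydroxylase JOX2 (AT5G05600) stood at 2.39 ± 0.15, CYP94C1 (AT2G27690), which oxidises jasmonoyl-isoleucine, at 2.14 ± 0.28, and the amidohydrolase IAR3 (AT1G51760) at 1.38 ± 0.12.

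Among 10 tested genes for proteins that JAZ repressors work with, namely the receptor complex, MYC factors and co-repressors, 4 rose in mRNA at low boron, with a median of 0.23, where 19.5% of all genes were called higher. JAM1 (AT2G46510), a bHLH repressor that competes with MYC2, stood at 1.06 ± 0.12, JAM3 (AT4G16430) at 0.36 ± 0.12 and the Mediator subunit MED25 (AT1G25540) at 0.31 ± 0.09. The count was 1 with DESeq2 or without low boron library 2 or 3, and 2 without Ctrl library 2. Footprints of JAM1 alone rose (0.89 ± 0.22), a count of 0 without low boron library 2 or 3 or Ctrl library 2. MYC2 was listed at 0 in all 12 libraries, so the files give no level for it.

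Known outputs of the pathway rose at low boron, 10 of 11 tested in mRNA with a median of 1.63 and 6 of 11 in footprints, against the same shares of 19.5% and 8.05% over all genes. The tyrosine aminotransferase TAT3 (AT2G24850) stood at 4.75 ± 0.26 in mRNA, the acetyltransferase NATA1 (AT2G39030) at 4.66 ± 0.37 and the storage protein VSP1 (AT5G24780) at 2.32 ± 0.29. NATA1 mRNA was 0.231 and 1.33 CPM in Ctrl and 20.0 and 20.7 CPM in low boron, so the size of its change rests on few Ctrl counts. NATA1 and ERF1 (AT3G23240), both among the 10, had both mRNA libraries over the filter's cutoff of 1.13 CPM only at low boron. Genes that respond to touch and wounding also rose, 6 of 8 in mRNA with a median of 1.10, and 5 of 8 in footprints, or 3 without low boron library 2 or 3 or Ctrl library 2. The zinc finger factor ZAT12 (AT5G59820) stood at 2.11 ± 0.22, WRKY40 (AT1G80840) at 1.97 ± 0.23 and the calmodulin-like TCH3 (AT2G41100) at 1.72 ± 0.14. Summed, the 8 touch and wound genes stood at 392 to 554 CPM in Ctrl, 1331 to 1384 in low boron and 274 to 367 in high boron mRNA, and their part in the JAZ result was not tested. TCH3 weighed heavily in this sum, with mRNA means of 264, 871 and 121 CPM in Ctrl, low and high boron. It was the only 1 of the 8 called in mRNA at high boron. In the same low boron group as the JAZ rise, 6 of these 8 genes rose and 4 of the 5 shoot markers fell in mRNA. Of all genes, 19.5% were called higher and 13.8% lower in that comparison. Footprints of 1 of the 5 shoot markers fell, where 6.92% of all genes were called lower. No gene of either list was at 0 in a whole group.

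**Figure D4:**
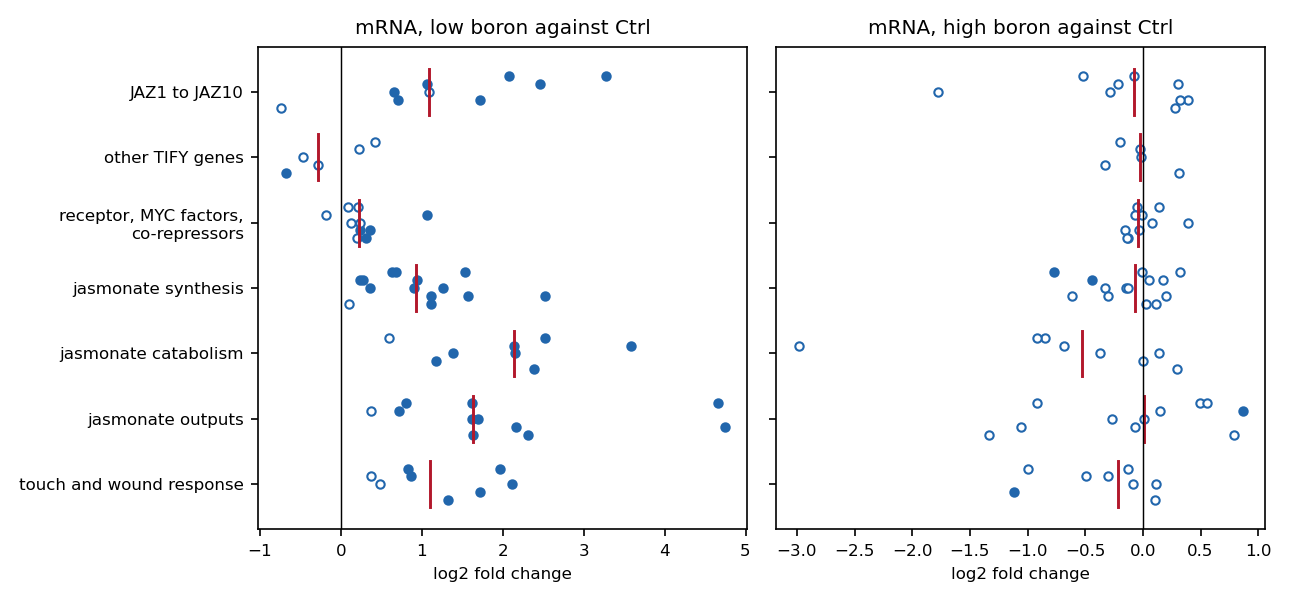
Log2 fold change in mRNA of each tested gene, by list, at low boron (left) and high boron (right) against Ctrl. Points are genes, filled where the edgeR adjusted p is under 0.05, and red lines are list medians, which at low boron run from -0.28 for the other TIFY genes to 2.14 for jasmonate catabolism. The catabolism median rests in part on genes with both libraries over the filter's cutoff only at low boron.

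At high boron 4 genes of these lists were called in mRNA, where 4.5% of all genes were called higher and 4.55% lower. They were 2 of 14 synthesis genes, 1 of 11 outputs and 1 of 8 touch and wound genes. None was called among 5 other TIFY genes, 8 catabolism genes and 10 genes for the receptor complex, MYC factors and co-repressors. In mRNA the lipoxygenases LOX4 and LOX6 fell, by -0.77 ± 0.21 and -0.44 ± 0.10, TCH3 fell by -1.12 ± 0.15, and CORI3, a cystine lyase, rose by 0.87 ± 0.13. In footprints 3 of 11 outputs and 1 of 7 catabolism genes were called higher, where 0.463% of all genes were. The outputs CORI3 (1.04 ± 0.24), VSP1 (1.65 ± 0.23), VSP2 (1.31 ± 0.23) and the amidohydrolase ILL6 (1.25 ± 0.20) rose. These genes are named as the called ones, after their values had been seen. Together with JAZ9, they were the called members of these lists and of the JAZ genes at high boron.

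The profile most like that of the JAZ genes was sought over the 12 libraries, taking the median over 9 JAZ genes of the log2 level relative to Ctrl. Among 15486 other genes the smallest root mean square distances were those of AT4G32460 (0.153), the pyrophosphatase PPa4 (AT3G53620, 0.166), the jasmonate synthesis enzyme OPR3 (AT2G06050, 0.169), AT4G29950 (0.183) and the glutamate dehydrogenase GDH1 (AT5G18170, 0.195). At low boron OPR3 mRNA stood at 1.12 and its footprints at 1.09 on the log2 scale, and at high boron at -0.30 and 0.39. The others were alike at low boron, with AT4G32460 at 1.05 and 1.07, PPa4 at 1.11 and 1.36, AT4G29950 at 1.23 and 1.30, and GDH1 at 1.17 and 1.35. Only OPR3 among these genes is in the lists above. Single JAZ genes were farther from their own median profile than these, JAZ6 being nearest at 0.343 and JAZ4 farthest at 1.19. The 12 libraries share groups and depth, and the distances are a description only.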

How the data were processed

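RNA-seq and ribosome profiling were done on 3 boron groups with 2 libraries per group and assay. The authors deposited raw counts per gene in 1 table per assay, RNA reads and ribosome P-sites summed over 1 coding sequence per gene, per the file headers and names. Bowtie2 and SAMtools were used, per the submitters' processing notes, and versions, genome build, annotation and strand use are not given in the sources used here, so no coordinates are printed and no promoter or protein sequence was used here. Columns carry the numbers 2 and 3 where the labels have 1 and 2, so libraries were assigned to groups only.

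From the deposited counts, edgeR 4.0.16 in R 4.3.3 was run with TMM scaling, filterByExpr (minimum count 10) and the quasi-likelihood test, the 3 groups of an assay in 1 fit, which left 18403 genes for mRNA and 17697 for footprints. Footprints per mRNA were the interaction in a fit over 12 libraries, scaled within each assay, for 17306 genes. The common biological coefficient of variation was 6.92% in mRNA, 14.9% in footprints and 11.1% in the joint fit. The fits were tested on simulated data. Gene names came from a RefSeq table of TAIR10.1, which matched 27445 of 27655 gene IDs. Equal-numbered libraries were not taken as pairs, since the labels do not say that the numbers mark a shared batch. The correlations of their deviations ran from -0.0269 to 0.154, which does not exclude a shared effect. With a replicate block 1709 genes were called higher in footprints at low boron, against 1425 without it. Alternatives were DESeq2 1.42.0, its size factors, no filter, 2-group fits, a replicate block and leaving out each library.

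The JAZ genes and the 6 lists of 62 other genes were chosen with earlier results of these data known. All 10 JAZ genes are described. From each list up to 3 genes are named, those called in low boron mRNA with the largest change among genes with a mean log2 CPM of at least 1.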

Additional observations from a re-analysis of the deposited data

How the results depend on the processing

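Of 928 values of JAZ genes recomputed under an alternative, 868 kept their direction and their side of the threshold, 12 lost their call, 15 gained one and 33 turned sign, and every one that turned sign was uncalled in the main analysis. The low boron rise in mRNA of JAZ1, JAZ2, JAZ3, JAZ5, JAZ6, JAZ9 and JAZ10, and that in footprints of JAZ1, JAZ5, JAZ9 and JAZ10, kept direction and call under each alternative run. The count of JAZ genes higher in low boron mRNA was 7 to 8, and in footprints 4 to 7 (6 in the main analysis). With the replicate block 7 were higher in footprints at low boron, the added gene being JAZ3 (0.74, adjusted p = 0.0284), and 5 were lower at high than at low boron (4 without it), the added gene being JAZ6 (adjusted p = 0.0458); it changed no other call of a JAZ gene. At high boron without a filter 1 JAZ gene, JAZ6, was higher in mRNA; leaving out 1 library gave 0 to 2 higher and 0 to 1 lower in mRNA, and 0 to 1 higher in footprints. The footprint to mRNA difference of JAZ3 at low boron, -0.0101 in the main analysis, was 0.0179 with DESeq2 size factors, 0.0363 with DESeq2, 0.0104 with no filter, 0.0200 with the replicate block and 0.0203 in the 2-group fit, and that of JAZ10 (0.0349) was -0.00609 with the replicate block.

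Leaving out 1 library also turned the sign of uncalled values. At high boron the mRNA change ran from -0.25 to 0.12 for JAZ1 and from -0.42 to 0.80 for JAZ4, and the footprint change from -1.10 to 0.77 for JAZ8, -0.11 to 0.15 for JAZ2, -0.0366 to 0.32 for JAZ6 and -0.55 to 0.78 for JAZ5. JAZ4 footprints ran from -1.34 to 0.24 at low boron and from -1.06 to 0.51 between the extremes. Footprints per mRNA at low boron ran from -0.36 to 0.64 for JAZ3, -0.31 to 0.50 for JAZ10, -0.74 to 0.85 for JAZ7 and -0.60 to 0.98 for JAZ4, and at high boron from -0.35 to 0.0132 for JAZ6, -0.20 to 0.80 for JAZ3 and -0.0377 to 1.32 for JAZ5. The cause was not tested. Counts over all genes moved by more than 1.5 times in 15 of the 16 directions. In mRNA 3582 genes higher at low boron became 2192 with DESeq2, 2538 lower became 1411 without low boron library 3, 829 higher at high boron became 401 with DESeq2 and 838 lower became 343 without high boron library 2. In footprints 1425 higher and 1225 lower at low boron became 636 and 286 without low boron library 3, 82 higher at high boron became 18 without Ctrl library 2 or 191 with no filter, and 268 lower became 94 without high boron library 2 or 477 with no filter. Between the extremes, 3553 mRNAs higher at high boron became 2239, and 1653 higher and 2007 lower in footprints became 653 and 1216, without low boron library 3. Footprints per mRNA gave 4 higher at low boron (0 to 10) and 0 lower (0 to 3), and 6 higher at high boron (1 to 35) and 121 lower (35 to 171). Counts of JAZ4, of JAZ8 and of JAZ7 mRNA were low, which limits what could be detected for them.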
